A study of Rattus norvegicus with 115 samples.

Results

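Epithelial RNA of mammary tumours was compared between rats given an antibody against PD-L1 and rats given vehicle. The labels place 115 samples of sorted tumour or gland cells in 3 fractions, and the count table has 108 columns whose names state rat and tumour but leave out the fraction. A column was therefore taken as epithelial by its own counts: Ptprc under 150 CPM (counts scaled to a common total, by the column's own sum), Epcam at 300 CPM or more, and Epcam above Col1a1. Ptprc encodes the leukocyte antigen CD45, Epcam an adhesion protein of epithelial cells and Col1a1 a collagen of fibroblasts. The rule found 20 of the 108 columns: 12 columns of 7 PDL1 rats, from 24 columns of those rats, and 8 columns of 5 Vehicle rats, from 27 columns of 9 Vehicle rats. Columns of a rat were summed, so that the rat, which received the treatment, was the replicate.

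PDL1 rats and Vehicle rats were virgin Sprague Dawley rats, an outbred strain, and no genetic change is named in the labels. All had received 1 to 3 intraperitoneal injections of the carcinogen N-nitroso-N-methylurea (NMU) at 50 mg/kg, at an age of 35 to 53 days. Treatment with the monoclonal antibody against PD-L1, or with vehicle, began once tumours could be felt. The 12 PDL1 columns came from 9 tumours, of which the deposited sample table classed 4 as growing and 4 as stable and gave no class for 1. The 8 Vehicle columns came from 6 tumours, 4 growing and 2 stable. Time from NMU to sacrifice, in the table's own unit, ran from 79 to 183 for the PDL1 tumours and from 77 to 169 for the Vehicle tumours. Tumours are numbered within a rat in the labels, and 3 rats contributed 2 tumours each.

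PD-L1, encoded by Cd274, is a surface protein of tumour and immune cells that engages the receptor PD-1 on T cells and restrains them. Interferon-gamma from activated T cells acts on epithelial cells through its receptor and raises the genes of antigen presentation, among them MHC class I with its peptide loading machinery, MHC class II and Cd274 itself. In mammary epithelium MHC class II can be induced, and its genes depend on the coactivator CIITA and on a shared promoter element, the Y box, which the factor NF-Y binds.

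The Y box is shown here because MHC class II genes had the highest median fold change of the lists described below. The motif CTGATTGG was searched on both strands in RefSeq promoters of the build GRCr8, from 250 bases before to 50 bases after each gene's start. It was present in 3.50% of 33469 promoters and in 5 of the 9 genes of the class II list that had a promoter. Cd74, Ctss, RT1-DMa and RT1-DOb had no match in this window. The stretches below give 30 bases on each side of the motif, on the gene's strand and with the motif in capitals, for the classical class II genes; RT1-Da and RT1-Ba encode alpha chains, RT1-Db1 and RT1-Bb beta chains.
RT1-Da (chr20:4515333-4515400, plus strand): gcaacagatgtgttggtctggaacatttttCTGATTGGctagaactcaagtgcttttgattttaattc
RT1-Ba (chr20:4576981-4577048, plus strand): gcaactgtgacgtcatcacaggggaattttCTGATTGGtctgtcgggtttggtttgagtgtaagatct
RT1-Db1 (chr20:4560208-4560275, minus strand): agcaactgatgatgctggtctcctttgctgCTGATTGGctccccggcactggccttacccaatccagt
RT1-Bb (chr20:4604145-4604212, minus strand): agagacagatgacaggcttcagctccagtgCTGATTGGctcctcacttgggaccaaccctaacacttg
The motif lay on the gene's own strand in all 4, ending 44 bases before the start of RT1-Da, 38 before RT1-Ba, 75 before RT1-Db1 and 56 before RT1-Bb.

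The values that chose the columns are given as a description only. Among the columns kept, the highest Ptprc was 124 CPM, in the column of PDL1 rat P28, and the nearest column beyond the limit had 486 CPM. The lowest Epcam kept was 1305 CPM in PDL1 rat P38, while the highest under the minimum was 111 CPM. Epcam exceeded Col1a1 by a ratio of 1.11 in the column nearest to the line, from Vehicle rat P7, and the nearest column outside had a ratio of 0.846. The labels list 8 Ep samples of PDL1 rats and 4 of Vehicle rats, whereas the rule kept 12 and 8 columns. Some columns must therefore carry another fraction label. Vehicle rat P10 and PDL1 rat P38 have a single sample each, labelled DN, so they rest on that fraction alone. Tumour T1 of Vehicle rat P39 has no Ep sample either. The mix of fractions may thus differ between the groups, and its part in the differences below was not tested. The luminal keratin Krt8, which the rule did not use, was present in every rat. It had a lowest, median and highest value of 2364, 3415 and 6114 CPM in PDL1 rats and of 1724, 4570.4 and 9312 CPM in Vehicle rats (CPM from here on are per rat and scaled by TMM). Krt18, its partner in luminal filaments, had 1562 to 3749 CPM in PDL1 rats and 1579.6 to 4158 CPM in Vehicle rats. Both keratins were thus measured in each of the 12 rats, with overlapping ranges.

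**Figure D1:**
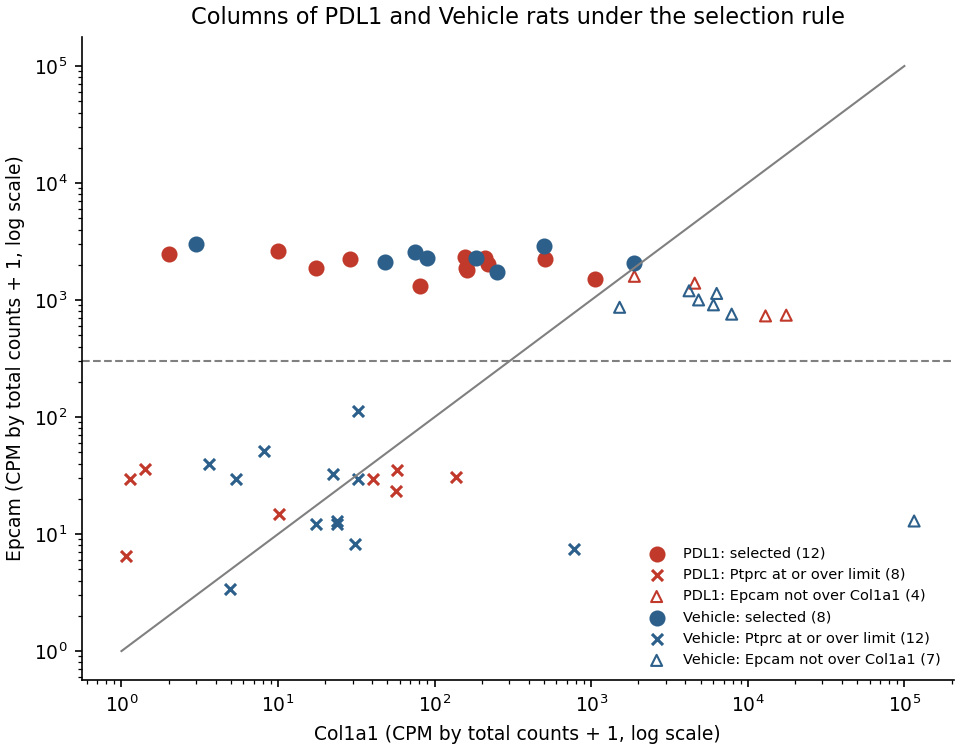
Each point is a column of a PDL1 rat (red) or a Vehicle rat (blue), placed by Col1a1 and Epcam CPM plus 1 on log axes; the dashed line is the Epcam minimum and the diagonal marks equal Epcam and Col1a1. The 12 PDL1 and 8 Vehicle columns kept (filled circles) form 1 band of Epcam, and their Col1a1 runs from 1.01 CPM in PDL1 rat P28 to 1866 CPM in Vehicle rat P7.

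Summed counts per rat ranged from 4367999 to 28846390 in PDL1 rats and from 5308021 to 33895295 in Vehicle rats, so that 3 counts, taken as the floor of detection, correspond to 0.0915 to 0.675 CPM. The sample table splits the columns into batch 2 (7 columns of 5 PDL1 rats, 6 of 4 Vehicle rats) and batch 3 (5 columns of 4 PDL1 rats, 2 of 2 Vehicle rats), and 3 rats have columns of both. In batch 2, 92 genes had no count in any of the 13 columns although they averaged at least 1 CPM in the 7 columns of batch 3.

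No gene passed the test between PDL1 and Vehicle epithelium. Of 12542 genes tested with edgeR's quasi-likelihood F test, 0 (0%) had a Benjamini-Hochberg adjusted p under 0.05, and the smallest adjusted p was 1.00. At an unadjusted p under 0.05 there were 227 genes (1.81%), 97 of them higher in PDL1 rats (0.773%) and 130 lower (1.04%). DESeq2 and limma voom also called 0 genes, with 333 and 162 genes at an unadjusted p under 0.05. The median log2 fold change over all genes was -0.01, the middle 50% of the genes lay between -0.23 and 0.20, and the median standard error was 0.37. Of all genes tested, 48.6% had a positive fold change. Genes of a list share the same rats, so the counts of higher and lower genes given below are not counts of independent results. All fold changes below are log2 values, PDL1 over Vehicle, from that fit with their standard errors (SE, 7 PDL1 and 5 Vehicle rats). All have an adjusted p that rounds to 1.00 and are given as measured values that did not pass. Single rats weighed heavily on them: with each of the 12 rats left out in turn, all 38 medians of the gene lists described below moved by over 1.5 times in at least 1 fit, and 17 of them changed sign. Of the 94 named genes tested, 61 had a fold change that moved by over 1.5 times and 13 of these changed sign.

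Single genes that separated the groups without overlap were few. In 5 genes (0.0399% of those tested) every PDL1 rat lay above every Vehicle rat, and in 2 genes (0.0159%) every PDL1 rat lay below. Etfbkmt, a methyltransferase that modifies an electron carrier of mitochondria, had a lowest, median and highest value of 20.2, 33.98 and 44.3 CPM in PDL1 rats, against 14.4, 15.97 and 17.9 CPM in Vehicle rats (log2 fold change 0.91 ± 0.24). Mrps28, a protein of the small mitochondrial ribosomal subunit, had 29.6, 32.7 and 45.2 CPM in PDL1 rats, against 21.96 to 26.8 CPM in Vehicle rats (0.61 ± 0.18). Ifi30, an interferon-inducible thiol reductase that unfolds antigens for class II presentation, had 111, 144 and 391.98 CPM in PDL1 rats, against 75.2, 92.7 and 96.4 CPM in Vehicle rats (0.98 ± 0.30). In PDL1 rats other than P28, Ifi30 was at most 169.7 CPM, and without P28 its fold change was 0.65. The fold change of Ifi30 was 1.14 in batch 2 alone, 0.33 in batch 3 alone and 0.26 with growing tumours only. Gtpbp8 and Atpaf2, an assembly factor of ATP synthase, were the other 2 that lay above, by less (0.46 ± 0.27 and 0.29 ± 0.15). For Atpaf2 the groups all but touched, with 55.23 CPM in the lowest PDL1 rat and 55.22 CPM in the highest Vehicle rat. For Gtpbp8 these values were 9.90 and 9.38 CPM. Of the pair that lay below, Osbpl11, a lipid transfer protein, had 22.1 to 30.8 CPM in PDL1 rats and 33.8 to 50.4 CPM in Vehicle rats. Clcn4, a chloride and proton exchanger, had at most 0.738 CPM in PDL1 rats, near the floor, and 0.762 to 2.45 CPM in Vehicle rats. Gtpbp8, Atpaf2, Osbpl11 and Clcn4 were named for this separation after their values were seen.

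The 12 genes with the smallest p among those higher in PDL1 rats included a water channel, transporters and receptors. Plac8, a cysteine-rich protein, had the smallest p of them (unadjusted p = 0.00187, edgeR). It reached 309, 690.2 and 971 CPM (lowest, median, highest) in PDL1 rats and 215, 297 and 409 CPM in Vehicle rats, a fold change of 1.11 ± 0.29. Only 1 PDL1 rat, P30, lay within the Vehicle range. The water channel Aqp5, found in secretory epithelium, differed by 2.19 ± 0.69. PDL1 rats P29 (1629 CPM), P26 (1301 CPM), P28 (878 CPM) and P27 (707 CPM) stood above all Vehicle rats, of which P39 was highest with 282 CPM, while PDL1 rats P24, P30 and P38 (91.04 to 231 CPM) fell inside the Vehicle range. Rbp7, a retinol binding protein, was also highest in P29, P26 and P27. It measured 270.3 CPM in P29, 154 CPM in P26 and 131 CPM in P27 among PDL1 rats, against 2.79 to 27.6 CPM in Vehicle rats (2.57 ± 0.90). PDL1 rat P24 had 40.7 CPM of Rbp7, while P28, P38 and P30 (7.13 to 22.3 CPM) fell inside the Vehicle range. Folr2, a folate receptor that macrophages carry, had 0.838 to 47.3 CPM in PDL1 rats and 0.811 to 6.83 CPM in Vehicle rats (2.66 ± 0.85). Slc7a7, a transporter of cationic amino acids, peaked at 197 CPM in PDL1 rat P27 and at 29.1 CPM in Vehicle rats (1.62 ± 0.57). For Slc7a7, PDL1 rat P38 (10.9 CPM) lay below every Vehicle rat and P30 (24.6 CPM) within their range. Tmprss6, a membrane serine protease, lay above 34 CPM in 6 PDL1 rats and at 7.08 CPM in P38, while 4 Vehicle rats had 8.21 to 12.6 CPM and P39 had 45.5 CPM. Sft2d3 (1.05 ± 0.36) and Hapln2, a link protein of the extracellular matrix (1.51 ± 0.53), had overlapping ranges. RT1-Da, the remaining gene of the 12, is described with its class below.

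**Figure D2:**
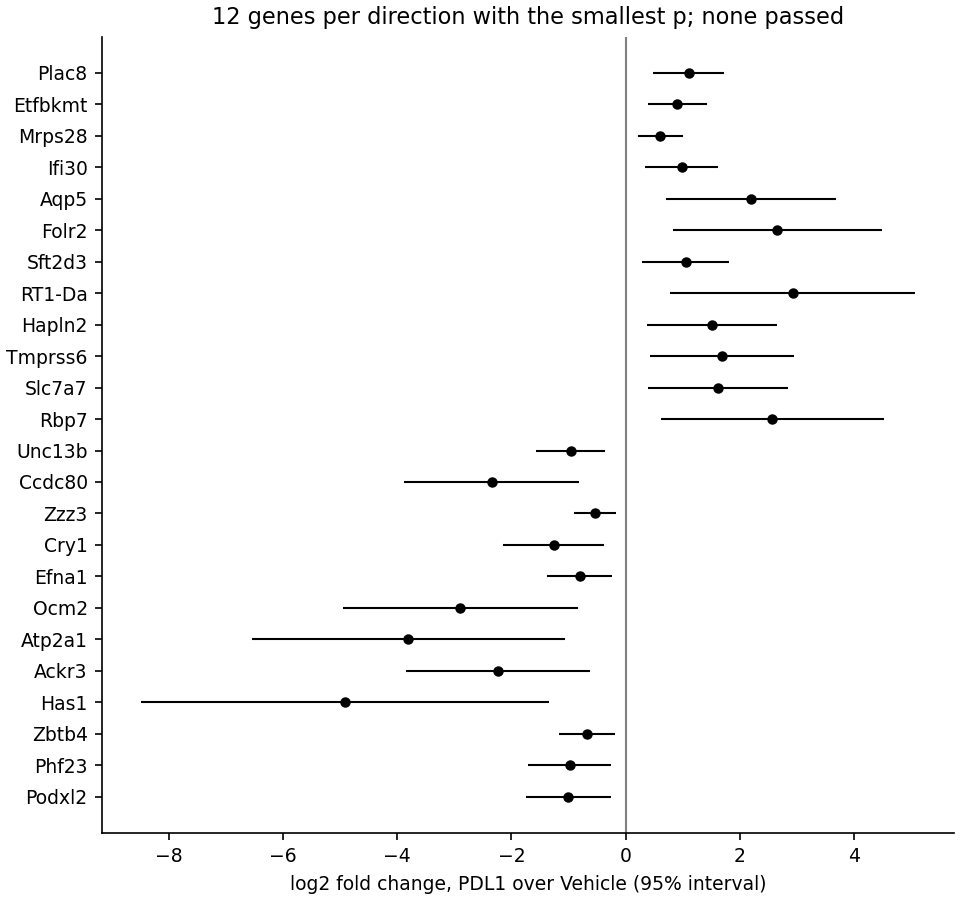
Points give the log2 fold change, PDL1 over Vehicle, of the 12 genes per direction with the smallest p, with 95% intervals from the fit. The 12 genes higher in PDL1 rats stand at the top and the 12 lower ones below them; no gene passed after adjustment, and the widest intervals belong to genes carried by 1 or 2 rats, such as Has1.

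On the lower side, Has1, Ccdc80 and Ackr3 were high in the same 2 Vehicle rats, P10 and P7. Has1, which makes hyaluronan, had 138 CPM in Vehicle rat P10 and 80.4 CPM in P7, but at most 1.15 CPM in the other 3 Vehicle rats and at most 4.50 CPM in PDL1 rats (-4.92 ± 1.66). Ccdc80, a matrix protein, had 8.38 to 39.6 CPM in PDL1 rats, and in Vehicle rats 188 CPM in P10, 294 CPM in P7 and 12.8 to 23.6 CPM in the others (-2.34 ± 0.71). The chemokine scavenger Ackr3 again peaked in P10 (79.5 CPM) and P7 (82.5 CPM), with at most 14.4 CPM in PDL1 rats and at most 9.76 CPM in the other Vehicle rats. Atp2a1, the calcium pump of fast muscle, had 161 CPM in Vehicle rat P7 and at most 8.93 CPM in every other rat, and a fold change of -0.58 without P7. In those 4 genes the Vehicle rats without a peak lay in the PDL1 range or near it. Ocm2 had at most 4.36 CPM in PDL1 rats and 53.8, 13.3 and 10.4 CPM in Vehicle rats P10, P4 and P8. Vehicle rats P39 (2.56 CPM) and P7 (1.66 CPM) lay within the PDL1 range of Ocm2. Its fold change was -2.89 ± 0.96, and -1.72 without P10. A second set differed by less. The zinc finger gene Zzz3 had 37.4 to 61.3 CPM in PDL1 rats and 58.02 to 73.9 CPM in Vehicle rats (-0.53 ± 0.17), with 6 PDL1 rats below every Vehicle rat. Efna1, a ligand of Eph receptors, had 134, 188 and 282 CPM in PDL1 rats and 178, 376 and 516 CPM in Vehicle rats (-0.81 ± 0.27). Cry1, a repressor of the circadian clock, had 8.25 to 22.1 CPM in PDL1 rats and 13.8 to 84.3 CPM in Vehicle rats (-1.26 ± 0.41). The top Vehicle value of Cry1 was that of P10, and without P10 its fold change was -0.69. Unc13b, a vesicle priming factor, differed by -0.96 ± 0.28 and the transcription regulator Zbtb4 by -0.67 ± 0.23. Phf23 differed by -0.98 ± 0.34 and Podxl2 by -1.003 ± 0.35, and the ranges of all 4 overlapped. Without Vehicle rat P8 the fold change of Podxl2 was -0.63.

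MHC class II genes ranged widely inside the PDL1 group. All 11 measured genes of the list had a positive fold change and 6 of them an unadjusted p under 0.05, and the list's median was 2.35 beside -0.01 over all genes. Cd74, the invariant chain that guides class II molecules, had 249.8, 686 and 14136 CPM (lowest, median, highest) in PDL1 rats and 249, 579.5 and 1479.6 CPM in Vehicle rats (2.42 ± 1.06, unadjusted p = 0.040, edgeR). The high values were those of P28 (14136 CPM) and P24 (8380 CPM), with P30 next at 1594.5 CPM, and the other 4 PDL1 rats lay within the Vehicle range. RT1-Da, the class II alpha chain, followed the same order, with 3347 CPM in P28, 1170.2 CPM in P24, 407 CPM in P30 and 64.8 to 169 CPM in the other PDL1 rats. Vehicle rats had 51.5 to 190.4 CPM of RT1-Da, and the fold change was 2.93 ± 0.99. RT1-Ba had 2453 CPM in P28 and 974 CPM in P24, against a Vehicle range of 33.7 to 137 CPM (2.95 ± 1.05), and RT1-Db1 had 3433 and 1698 CPM in those PDL1 rats, against 70.5 to 299 CPM in Vehicle rats (2.35 ± 0.93). Ciita, the coactivator of these genes, had 56.03 CPM in P24, 41.3 CPM in P28 and 0.850 to 5.73 CPM in the other PDL1 rats, against 0.907 to 6.20 CPM in Vehicle rats (2.54 ± 1.11). RT1-Bb departed from its partners. It had 1172 CPM in P28 and 134 CPM in P30 but 1.58 CPM in P24, and 69.4 CPM in Vehicle rat P7 beside at most 0.144 CPM in the other Vehicle rats; class II genes are polymorphic and similar to each other, and how reads were shared between such copies is not known. RT1-DMa and RT1-DMb, which exchange peptides on class II molecules, were at most 6.09 CPM in every rat; RT1-DMb is among the genes without counts in batch 2, so its zeros followed the batch.

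The class II differences did not hold in every subset. In batch 2 alone the list's median was 2.75. In batch 3 alone, where 4 PDL1 and 2 Vehicle rats remained, it was -0.17. PDL1 rats P24, P28 and P30 and Vehicle rats P4, P7 and P8 have no column in batch 3. Cd74 had a fold change of 2.75 in batch 2 and -0.39 in batch 3, RT1-Da 3.32 and -0.17, RT1-Db1 2.78 and -0.69, and RT1-Ba 3.27 and -0.01. With growing tumours only, 3 PDL1 and 4 Vehicle rats remained. PDL1 rats P24, P28, P30 and P38 and Vehicle rat P7, whose columns came from stable tumours, drop out. The list's median in that subset was 0.37. Without P28 it was 1.40 and without P24 it was 1.70. P28 and P24 also had the highest sums of common leukocyte markers. Ptprc, on which the columns were chosen, was 127 CPM in P28 and 14.6 CPM in P24, with 1.13 to 11.4 CPM in the other PDL1 rats and 0.945 to 25.6 CPM in Vehicle rats. Cd53, a tetraspanin of leukocytes, had 134 CPM in P28 and 3.43 to 15.1 CPM in the other PDL1 rats, against 0.720 to 9.60 CPM in Vehicle rats (3.07 ± 1.09, and 1.44 without P28). The 9 common leukocyte markers summed to 1199.5 CPM in P28 and 507 CPM in P24, with 58.98 to 132 CPM in the other PDL1 rats and 29.5 to 225 CPM in Vehicle rats. The part of leukocyte RNA in the class II levels was not tested. The tumour of P28 had the highest deposited CD8 fraction, 0.380, followed by that of Vehicle rat P7 with 0.277, whereas that of P24 was 0.0681.

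**Figure D3:**
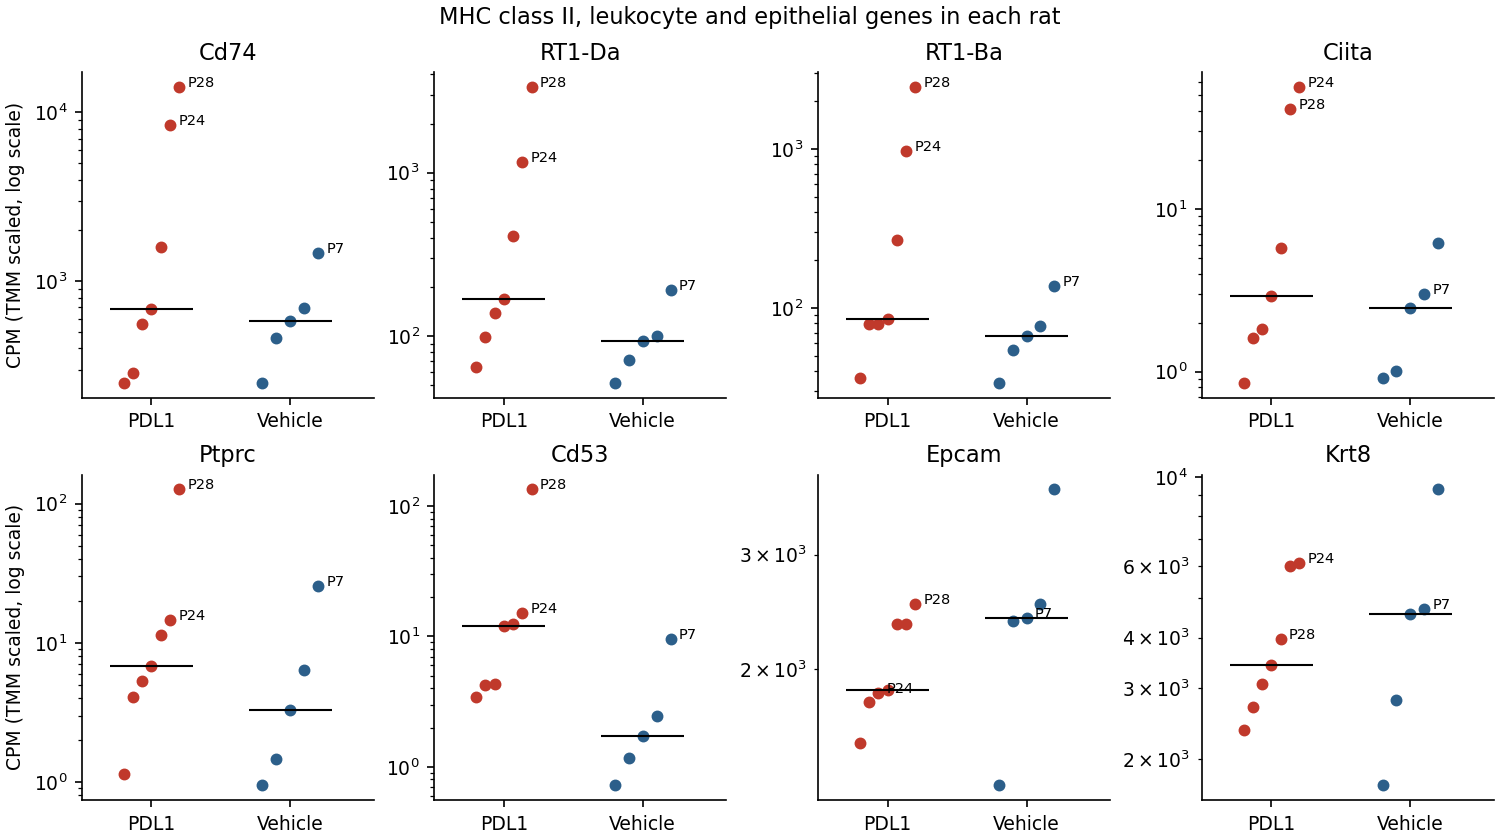
Each point is a rat (red PDL1, n = 7; blue Vehicle, n = 5) and the line is the group median, with CPM on log axes that differ between panels; PDL1 rats P24 and P28 and Vehicle rat P7 are named. Cd74, RT1-Da and RT1-Ba were highest in P28 and P24, Ptprc and Cd53 were highest in P28, and the group medians of Cd74, 686 CPM in PDL1 rats and 579.5 CPM in Vehicle rats, lay close together.

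MHC class I and the interferon pathway differed less. Of 24 class I genes measured, 20 had a positive fold change, the median was 0.18 (0.04 without P4), and 1 had an unadjusted p under 0.05. That gene was Psmb10, a subunit of the immunoproteasome, with 105, 175 and 355 CPM in PDL1 rats and 105, 121 and 158 CPM in Vehicle rats (0.63 ± 0.28). B2m, the light chain of class I, had 1629.6, 2815 and 4808 CPM in PDL1 rats and 1179, 2659.7 and 3111 CPM in Vehicle rats (0.29 ± 0.37). Tap1, the peptide transporter, had 120.3 to 681 CPM in PDL1 rats and 129 to 281 CPM in Vehicle rats (0.60 ± 0.43, and 0.18 without P28), and again P28 and P24 held the top values. The receptor gene Ifngr1 differed by 0.00 ± 0.52, with 72.1 to 432 CPM in PDL1 rats and 34.6 to 322 CPM in Vehicle rats. Irf1, an early target of the pathway, differed by 0.04 ± 0.46. The interferon-gamma response list had 12 of 16 genes with a positive fold change and a median of 0.52. No member had an unadjusted p under 0.05. Without P24 the median was -0.01 and without P28 it was -0.02. The list's mean log2 CPM differed by 0.06 between the group means, beside a pooled SD of 1.05. Its smallest p belonged to Irf8 (1.55 ± 0.78, and 0.65 without P28), a factor of myeloid and interferon-treated cells, which had 80.5 CPM in P28 and 33.98 CPM in P24. Gbp2, a guanylate binding protein, had 357 CPM in P28 and 349 CPM in P24 beside 26.5 to 57.9 CPM in the other PDL1 rats and 36.6 to 100.3 CPM in Vehicle rats. In the receptor and signalling list the smallest p was that of the kinase Jak2 (0.43 ± 0.31). Type I interferon genes were split, 11 higher and 13 lower with a median of -0.02, and Rsad2, an antiviral enzyme, spanned 6.44 to 198 CPM in PDL1 rats and 2.46 to 1331 CPM in Vehicle rats, with the top value in P10.

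The target of the antibody, Cd274, did not separate the groups. It had 1.27, 11.7 and 65.1 CPM (lowest, median, highest) in PDL1 rats and 8.80, 9.33 and 16.4 CPM in Vehicle rats, a fold change of 0.74 ± 0.69. PDL1 rat P28 was highest and PDL1 rat P38 lowest, so that the PDL1 range enclosed the Vehicle range; without P28 the fold change was 0.02. An antibody binds the protein, and its mRNA is no measure of that binding. Pdcd1lg2, the second ligand of PD-1, did not pass the filter on low counts and was at most 4.14 CPM. Of 14 checkpoint genes tested 9 had a positive fold change, with a median of 0.24, and of -0.04 without P28. Among them Cd80, a costimulatory ligand of antigen presenting cells, had 23.99 CPM in P28, 10.4 CPM in P24 and 0.802 to 2.44 CPM in the other PDL1 rats, against 0.488 to 2.28 CPM in Vehicle rats (2.63 ± 1.02, and 1.58 without P28). The 24 chemokines were evenly split, 12 higher and 12 lower. Ccl22, which antigen presenting cells secrete to attract regulatory T cells, had 1156 CPM in P28, 37.4 CPM in P24 and at most 7.68 CPM in the other PDL1 rats, against 0.518 to 16.5 CPM in Vehicle rats (5.32 ± 2.17), and without P28 its fold change was 0.98. Cxcl10, an interferon-induced chemokine for T cells, reached 241 CPM in PDL1 rat P30 and 363 and 292 CPM in Vehicle rats P10 and P7 (-1.04 ± 1.27). In the NF-kB and acute phase list, 8 genes were higher and 9 lower, with a median of -0.25 and of 0.37 without P10; the granulocyte growth factor Csf3 had 7.79 to 194 CPM in PDL1 rats and 3.76 to 2261 CPM in Vehicle rats, with P10 at the top (-3.33 ± 1.36, and -0.60 without P10).

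No gene of epithelial identity passed the test. The 18 luminal genes tested, Epcam among them, had a median of -0.17, with 6 higher, 12 lower and none at an unadjusted p under 0.05; the median was 0.05 without P10 and 0.05 in limma voom. Epcam, used by the rule, had 1535 to 2523 CPM in PDL1 rats and 1322 to 3785 CPM in Vehicle rats. Grhl2, a regulator of epithelial junctions, had the smallest p of the list (-0.43 ± 0.23). Gata3 and Foxa1, factors of the luminal lineage, differed by 0.22 ± 0.29 and 0.36 ± 0.86; Foxa1 had 74.1 to 311 CPM in 6 PDL1 rats and 1.70 CPM in P38, against 8.21 to 249 CPM in Vehicle rats. Of 18 basal genes 14 had a negative fold change and none an unadjusted p under 0.05. Their median was -0.18, but 0.08 without P4 and 0.34 in batch 3 alone. Krt5 had 51.9 to 355 CPM in PDL1 rats and 79.8 to 123 CPM in Vehicle rats, and Krt14 had 13.1 to 166 CPM in PDL1 rats and 19.8 to 119 CPM in Vehicle rats. Lamb3, a chain of the basement membrane laminin, had 29.2 to 141 CPM in PDL1 rats, against 381 CPM in Vehicle rat P8 and 29.97 to 164 CPM in the other Vehicle rats (-1.10 ± 0.53, and -0.50 without P8).

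Milk genes varied widely between rats of a group, with a pooled SD of the list's mean log2 CPM of 1.19 beside a difference between group means of 0.29. The list had 13 genes higher and 7 lower, with a median of 0.14 that ran from -0.14 without P4 to 0.48 without P10. Csn2, the beta casein gene, had 0.225, 3.21 and 102 CPM (lowest, median, highest) in PDL1 rats and 0.518, 19.1 and 1318 CPM in Vehicle rats (-3.92 ± 1.74, unadjusted p = 0.042, edgeR). The Vehicle value of 1318 CPM was that of P10 and the next was 56.04 CPM in P39; without P10 the fold change was -0.07. Lalba, the alpha-lactalbumin gene, was expressed at 480.4 to 5137 CPM in PDL1 rats and at 80.3 to 3882 CPM in Vehicle rats (0.50 ± 0.82). Among hormone genes 11 of 13 had a positive fold change, with a median of 0.24, and of 0.07 without P10. The median of the hormone list was -0.08 in batch 2 alone and 0.63 in batch 3 alone. Pgr, the progesterone receptor, had 12.7, 143 and 384 CPM in PDL1 rats and 17.3, 37.4 and 138 CPM in Vehicle rats (1.63 ± 0.75, unadjusted p = 0.047). PDL1 rats P26, P27, P29 and P24 exceeded every Vehicle rat, P28 lay under Vehicle rat P8, and P38 was the lowest of all. Esr1, the oestrogen receptor, had 4.39 to 43.4 CPM in PDL1 rats, against 5.48 to 21.5 CPM in 4 Vehicle rats and 187 CPM in P8 (-1.001 ± 0.77, and 0.80 without P8).

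**Figure D4:**
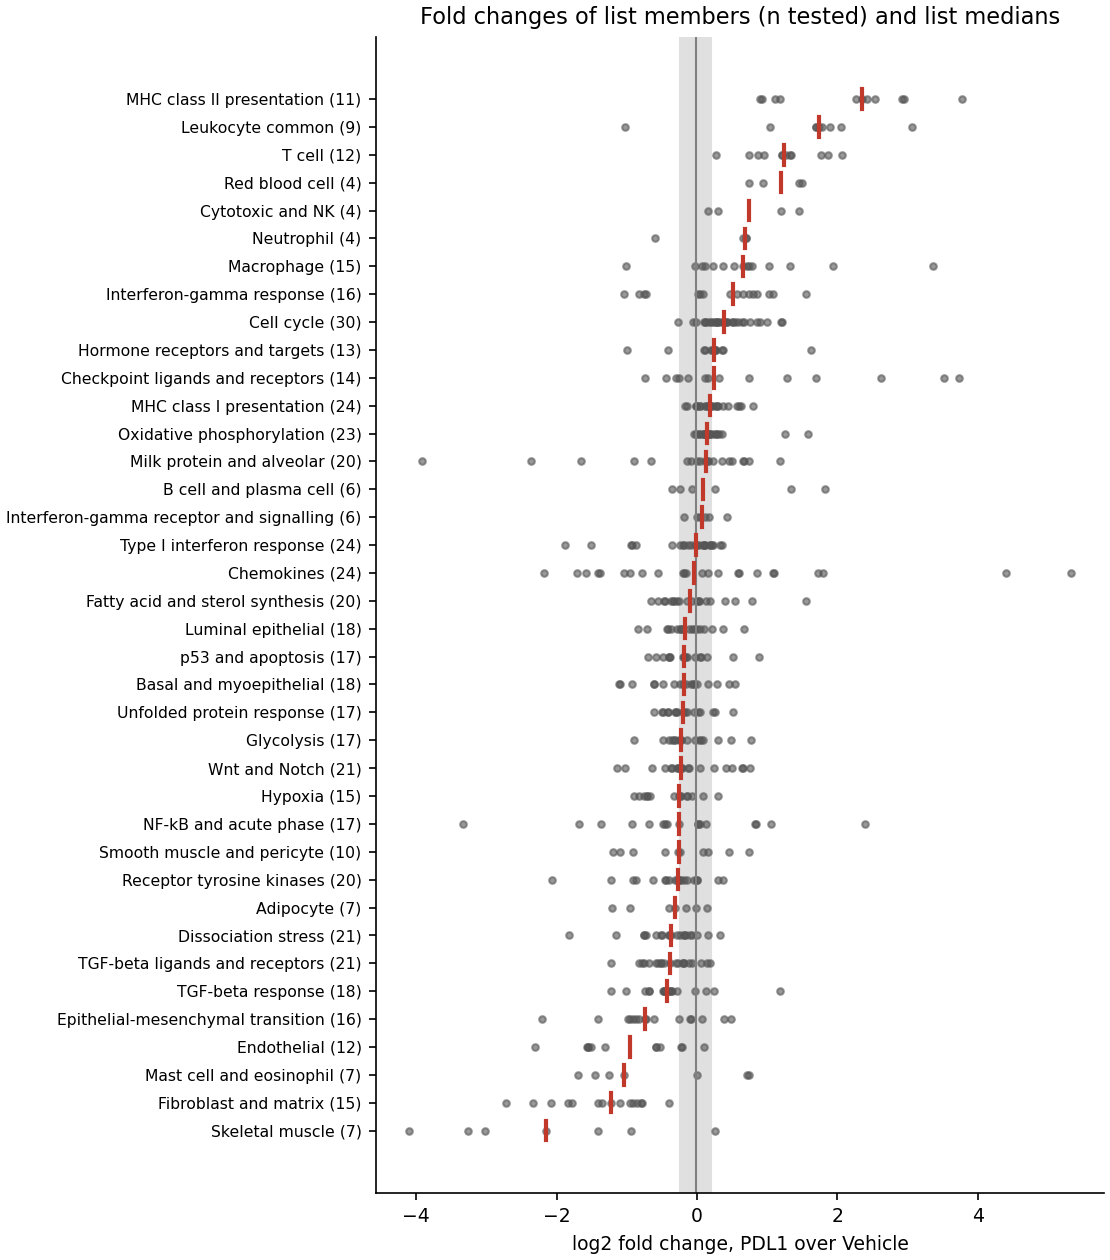
Grey points are the log2 fold changes, PDL1 over Vehicle, of the tested genes of each list and red bars the list medians, with the middle 50% of all 12542 genes shaded. MHC class II and the common leukocyte markers stand farthest to the right, with medians of 2.35 and 1.74, and fibroblast and skeletal muscle genes farthest to the left, with -1.23 and -2.14.

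Most cell cycle genes had a positive fold change and most growth factor receptors a negative one, by amounts that did not pass the test. Of 30 cell cycle genes, 27 had a positive fold change with a median of 0.39, and none had an unadjusted p under 0.05. Top2a, the DNA topoisomerase of dividing cells, had 9.91 to 61.3 CPM in PDL1 rats and 5.37 to 33.6 CPM in Vehicle rats (1.00 ± 0.55), while the proliferation marker Mki67 differed by 0.13 ± 0.52. Averaged over the list, log2 CPM came to 4.20 ± 0.74 in PDL1 rats and 3.87 ± 0.60 in Vehicle rats (SD, n = 7 and 5), and its median fold change was 0.08 without P26 and -0.25 with growing tumours only. Of 20 receptor tyrosine kinases 18 were lower, with a median of -0.27, and of -0.12 without P10. In batch 2 alone that median was -0.01, and in batch 3 alone -0.83. Erbb2, an amplification target in human breast cancer, differed by -0.22 ± 0.29, and Fgfr4, with the smallest p of the list, was at most 5.48 CPM. In the pathway of the other drug of the study, TGF-beta, 18 of 21 ligand and receptor genes were lower with a median of -0.38, and 15 of 18 response genes with a median of -0.42. Without P10 these medians were -0.18 and -0.12, and in batch 2 alone -0.22 and -0.10. Tgfb1 had 0.850 to 14.3 CPM in PDL1 rats and 6.74 to 28.3 CPM in Vehicle rats (-0.78 ± 0.57, and -0.33 without P8). Tgfbr1 differed by -0.27 ± 0.40, the receptor Bmpr2 by -0.51 ± 0.26 and the target Id3 by -1.23 ± 0.57. Without P7 the fold change of Id3 was -0.65, and with growing tumours only it was -0.36. Genes of epithelial-mesenchymal transition had a median of -0.73, 13 of 16 lower, but of -0.44 without P10 and 0.10 in batch 2 alone. The collagenase Mmp2 had 0 to 157 CPM in PDL1 rats and 17.6 to 746 CPM in Vehicle rats (-2.20 ± 1.03). Its fold change was -1.29 without P7 and -0.83 with growing tumours only. Notch1 had the smallest p of the Wnt and Notch list (-0.63 ± 0.30).

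Metabolic and stress lists had medians between -0.37 and 0.14. The 23 oxidative phosphorylation genes had a median of 0.14 with 21 higher, and the median was 0.06 without P10; Uqcrfs1, an iron-sulphur subunit of complex III, differed by 0.29 ± 0.18. Hypoxia genes had a median of -0.25 (-0.47 without P38) with 13 of 15 lower, 2 of them at an unadjusted p under 0.05; P4ha1, which hydroxylates collagen proline, had 32.3 to 71.5 CPM in PDL1 rats and 52.6 to 113 CPM in Vehicle rats (-0.67 ± 0.26). Glycolysis genes had a median of -0.22, and of -0.01 without P8. Hk2, which starts glycolysis, differed by -0.89 ± 0.49, and by -0.18 without P10. Lipid synthesis genes had a median of -0.10 (-0.29 without P28), and Elovl6 was at most 3.88 CPM in any rat. The p53 and apoptosis list had a median of -0.18 (-0.05 without P7) and its death receptor gene Fas differed by -0.70 ± 0.34. Unfolded protein response genes had a median of -0.19 (-0.33 without P4), with Ddit3 at -0.61 ± 0.29. Genes that enzymatic digestion of tissue is known to raise had a median of -0.37, 19 of 21 lower, but of -0.11 without P10 and -0.15 without P7. Klf4, an early response factor, had 32.8 to 78.2 CPM in PDL1 rats and 26.9 to 264 CPM in Vehicle rats (-1.15 ± 0.44, and -0.53 without P7).

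Markers of other cells were present at uneven levels, and in bulk RNA fewer cells of a type and less RNA per cell cannot be told apart. All 15 fibroblast and matrix genes tested had a negative fold change, with a median of -1.23 and 4 at an unadjusted p under 0.05. Col1a1, which the rule used, is among the 15, so the count and the median are a description. The 16 markers in the table summed to 129, 1002 and 3593 CPM (lowest, median, highest) in PDL1 rats and to 390.2, 1261 and 10088 CPM in Vehicle rats. P7 (10088 CPM) and P10 (5768 CPM) were the high Vehicle rats and P28 the low PDL1 rat. Dcn, a matrix proteoglycan, had 3.00 to 284 CPM in PDL1 rats, and in Vehicle rats 2469 CPM in P7, 1041 CPM in P10 and 41.3 to 72.4 CPM in the others (-2.72 ± 1.07, and -1.47 without P7). Col1a1, used by the rule, had 1.03 to 316 CPM in PDL1 rats and 47.7 to 1538 CPM in Vehicle rats. These are the Vehicle rats in which Has1, Ccdc80 and Ackr3 were high, and the part of fibroblast RNA in those differences was not tested. Without P7 the list's median was -0.80, and in batch 2 alone it was -0.10. Endothelial markers had a median of -0.95 (-2.01 without P24, -0.36 without P7), with Plvap at 1.13 to 22.5 CPM in PDL1 rats and 2.40 to 50.4 CPM in Vehicle rats, and the smooth muscle list -0.26 (0.50 without P4), where Myh11 differed by -1.09 ± 0.83. Skeletal muscle genes were those of P7, which had 298 CPM of Acta1 beside at most 17.7 CPM in PDL1 rats and 7.06 CPM in the other Vehicle rats; without P7 the list's median was 0.94.

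T cell markers summed to more in PDL1 rats P28 and P24 and Vehicle rat P7 than in the other rats. The 13 T cell markers summed to 292 CPM in P28, 143 CPM in P24 and 15.01 to 30.9 CPM in the other PDL1 rats, against 118 CPM in P7 and 10.1 to 19.04 CPM in the other Vehicle rats. The list's median was 1.24 with 12 of 12 higher and none at an unadjusted p under 0.05. Without P28 it was 0.27 and without P7 it was 2.77. Cd247, a signalling subunit that pairs with the T cell receptor, was at most 11.2 CPM. Macrophage markers summed to 509 to 2120.1 CPM in PDL1 rats and 281 to 1484 CPM in Vehicle rats; much of this was Cd14, which averaged 648 ± 425 CPM in PDL1 rats and 550.5 ± 364 CPM in Vehicle rats (SD, n = 7 and 5). Itgam, an integrin of myeloid cells, had 90.8 CPM in P28 and 0.603 to 6.92 CPM in the other PDL1 rats, against 0.152 to 2.83 CPM in Vehicle rats (3.36 ± 1.40, and 0.91 without P28). Cytotoxic genes were highest in P24, with a sum of 84.4 CPM, and Prf1, encoding perforin, was at most 7.20 CPM. Neutrophil markers also peaked in P24 (183 CPM), with Mmp9 at 9.68 CPM. Red cell genes summed to 1547 CPM in PDL1 rat P29 and to 246 CPM in Vehicle rat P10, with the haem enzyme gene Alas2 at 133 and 19.6 CPM there. The B cell kinase gene Blk had 9.62 CPM in P28 and at most 1.42 CPM in the other PDL1 rats, against at most 1.54 CPM in Vehicle rats. The B cell list's sum of 1146 to 2078 CPM in PDL1 rats and 847 to 1947 CPM in Vehicle rats came from Sdc1 and Xbp1, which epithelium expresses as well. Mast cell Tpsb2 and adipocyte Adipoq were at most 6.05 and 3.20 CPM. No list had a marker without counts in all 12 rats.

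**Figure D5:**
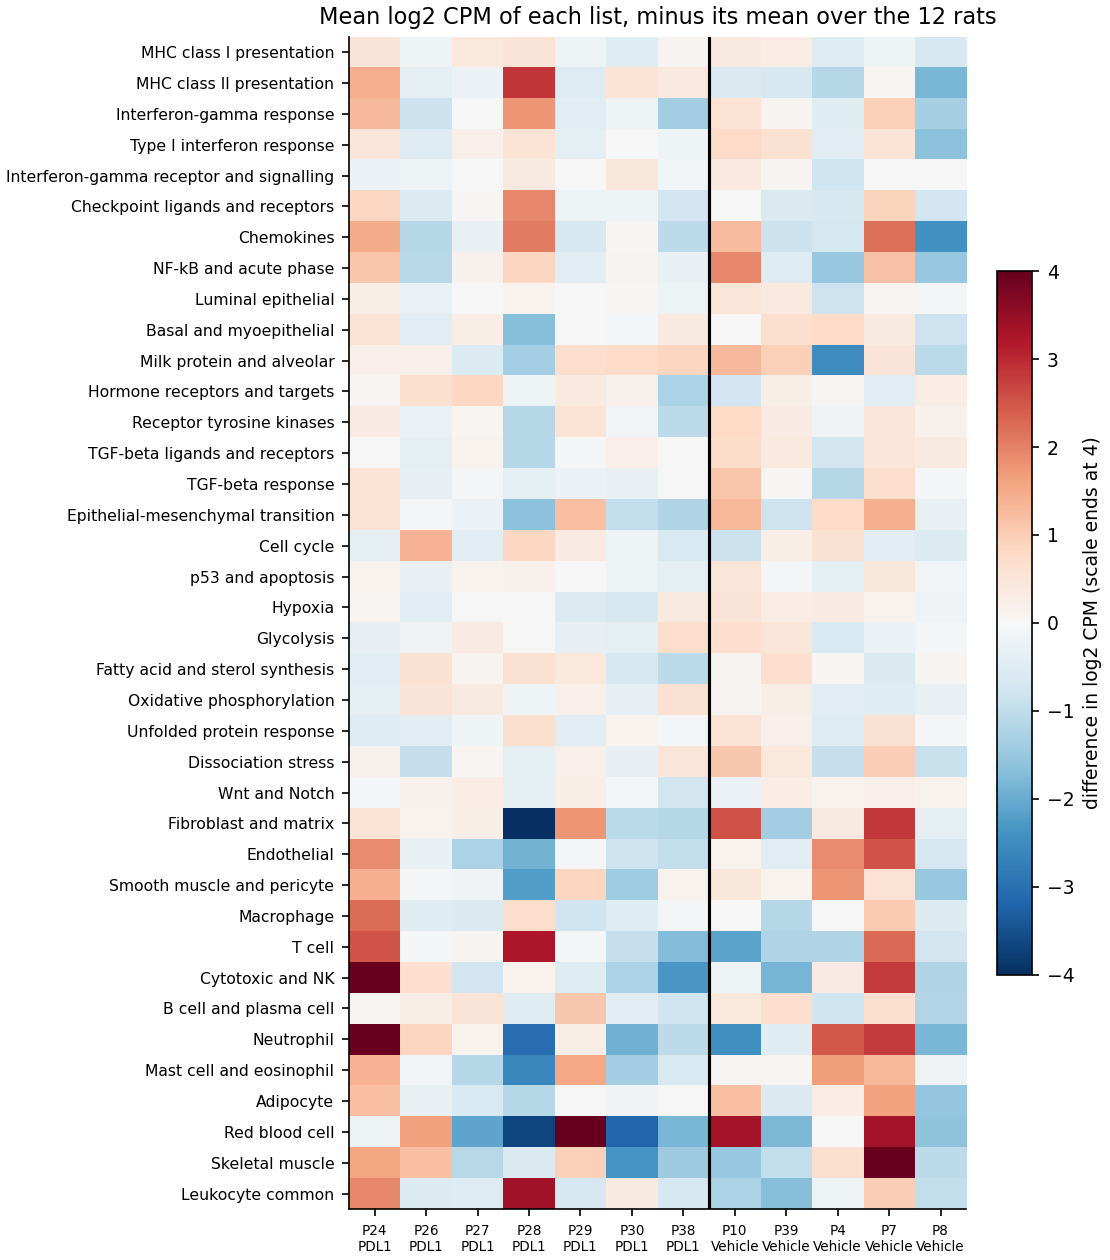
Rows are gene lists, columns the 12 rats with the 7 PDL1 rats left of the line, and colour the rat's mean log2 CPM of the list minus the mean over rats. MHC class II and common leukocyte rows are highest in P28 and P24, fibroblast genes are highest in P7 and lowest in P28, and milk genes are lowest in P4.

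Over the 12 rats the mean log2 CPM of all genes tested spanned 0.66. That mean averages far more genes than a list, which narrows its span, so it is no yardstick for the lists. The mean of the MHC class II list spanned 4.69, from P8 to P28, and that of the fibroblast list 7.24, from P28 to P7. The milk list spanned 3.80, from P4 to P10, and the interferon-gamma response list 3.15, from P38 to P28. Luminal genes spanned only 1.31 and oxidative phosphorylation genes 1.10. For MHC class II the difference between group means of the list, 4.54 ± 1.22 in PDL1 rats and 3.13 ± 0.71 in Vehicle rats on the log2 CPM scale (SD, n = 7 and 5), was 1.41, against a pooled SD of 1.04.

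Epithelial columns of the other treatments, chosen by the same rule, share the Vehicle rats and are given side by side. The inhibitor LY2157299 (6 columns of 4 rats) and the antibody with the inhibitor (12 columns of 5 rats) also had 0 called genes of 13027 against Vehicle in the 4-group fit. Cd74 averaged 3640 ± 5366 CPM in PDL1 rats, 3274 ± 3123 CPM in LY rats, 1447 ± 2091 CPM in PDL1+LY rats and 679.9 ± 459 CPM in Vehicle rats (SD, scaled over the 4 groups). The lowest rat of each treated group, with 246, 257 and 189 CPM in that order, was near the lowest Vehicle rat, with 247 CPM. The highest, with 13986, 6313 and 5131 CPM, stood above the highest Vehicle rat, with 1448 CPM. Aqp5 averaged 703 ± 586, 589 ± 473, 527 ± 288 and 154 ± 80.1 CPM in the same order of groups, and Plac8 639 ± 220, 509 ± 147, 460.0 ± 293 and 296 ± 73.2 CPM. Csn2 averaged 17.9 ± 36.5 CPM in PDL1 rats, 112 ± 205 CPM in LY rats, 9462 ± 19274 CPM in PDL1+LY rats and 276 ± 574 CPM in Vehicle rats. The SD of Csn2 exceeded its mean in all 4 groups, and 1 PDL1+LY rat had 43838 CPM.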

How the data were processed

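Cells of dissociated rat mammary tumours (2 mg/ml collagenase, 1 to 2 h) were sorted, and under 10 ng of RNA per sample was amplified with a SMARTer kit, per the labels' protocols. The authors deposited 1 table of raw counts per gene symbol for 17455 genes. The submitters' processing notes name FastQC, STAR and rn6. For the counting tool, annotation, strand use and filters, nothing was given in the sources used here, and reads of overlapping, antisense or near-identical genes may be shared. The deposited sample table gives a CD8 fraction from 0 to 1, a growth class and a batch number, per the file headers; the authors' denominator and the batch step are not stated.

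Column names give rat and tumour, and a column took the treatment of its rat; 21 of the 108 columns were not used. Epithelial columns were summed per rat and tested with edgeR 4.0.16 (TMM scaling, filterByExpr, robust quasi-likelihood fit and F test, Benjamini-Hochberg at 0.05) in R 4.3.3. The SE was obtained from F as the absolute log2 fold change divided by its square root. Scripts were tested on simulated data. A prior count of 2 entered the log2 CPM of lists. Summed counts of 4367999 to 33895295 per rat set a floor of 3 counts at 0.0915 to 0.675 CPM, which covers counting error only. Nothing in the labels says that columns of a rat are independent, and p-values measure the spread between rats. Alternatives were RLE, no filter, 5 CPM, DESeq2 1.42.0, limma 3.58.1 (voom), other epithelial rules, batch, growing tumours, single columns and leaving out each rat.

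The members and gene lists were chosen with earlier results of these data known. The genes named are the 12 per direction with the smallest p (average log2 CPM of at least 3, no provisional symbol), the member of each list with the smallest p, a set of single genes of the pathway, and a few chosen after their values were seen: RT1-Db1, RT1-Ba, RT1-Bb, RT1-DMa, RT1-DMb, Ciita, Cxcl10, Gbp2, Lalba, Foxa1, Gata3, Erbb2 and the genes whose groups did not overlap. Of the single genes of the pathway, 1 is not reported here.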

Additional observations from a re-analysis of the deposited data

Results flagged for a closer look

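Over 190 combinations of a named gene and a group, 17 had 1 rat far from the others of its group on the scale of log2(CPM + 1), by a gap that chance gives in about 1 in 20 groups. The genes share rats and are not independent.

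Rat P28 gave 6 of them. It was the highest PDL1 rat for Ifi30, with 391.98 CPM beside 169.7 CPM in the next, for Cd53, with 134 CPM beside 15.1 CPM, for Itgam, with 90.8 CPM beside 6.92 CPM, and for Blk, with 9.62 CPM beside 1.42 CPM. It was the lowest PDL1 rat for Mmp2 and Myh11, with 0 CPM each beside 29.8 and 13.05 CPM. PDL1 rat P38 was the lowest for Tmprss6, with 7.08 CPM beside 34.3 CPM, and for Foxa1, with 1.70 CPM beside 74.1 CPM. PDL1 rat P29 was the highest for the red cell gene Alas2, with 133 CPM beside 3.05 CPM, and for Tpsb2, with 3.37 CPM beside 0.762 CPM. Phf23 was lowest in PDL1 rat P24, with 20.9 CPM beside 50.0 CPM.

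In the Vehicle group, P7 was the highest rat for RT1-Bb, with 69.4 CPM beside 0.144 CPM, for Ccl22, with 16.5 CPM beside 1.62 CPM, and for Cd80, with 2.28 CPM beside 0.862 CPM. P10 was the highest for Hk2, with 112 CPM beside 32.2 CPM, and for Osbpl11, with 50.4 CPM beside 36.7 CPM. Tmprss6 was highest in Vehicle rat P39, with 45.5 CPM beside 12.6 CPM.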

How the results depend on the processing

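No gene was called in any of the 29 other settings tried. The number of genes at unadjusted p under 0.05 was 227 as reported, 447 without a filter on low counts, 362 with all 4 treatment groups in the fit, 483 in batch 3 alone, 406 over single columns with batch as a covariate, 107 with growing tumours only and 113 from the mean CPM over a rat's columns. It ran from 166 (without Vehicle rat P10) to 421 (without Vehicle rat P4) when each rat was left out, and stayed within 1.5 times the reported count in the 22 others. Epcam at 1000 CPM or more kept the same 20 columns, and Ptprc under 50 CPM left out only that of P28. No paired analysis was possible because the labels number no replicates and a rat received 1 treatment. Depth limits genes under about 0.675 CPM in the shallowest rat, where 3 counts are expected.

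Of 94 named genes, none of which was called, 34 had a log2 fold change of the other sign under some setting, and the cause was not tested. These log2 fold changes follow by setting. With RLE scaling, that of Ifngr1 was -0.0018. Without a filter on low counts, Ifngr1 had -0.0097. With a filter at 5 CPM, Ifngr1 had -0.00041. In DESeq2, they were Alas2 -2.97, Ifngr1 -0.0014 and Ptprc -0.11. In limma voom, they were Alas2 -0.37, Krt8 0.070, Krt18 0.047, Krt5 -0.030 and Esr1 0.30. With batch as a covariate in rats of 1 batch, they were Alas2 -6.49 and Mki67 -0.022. In batch 2 alone, they were Rsad2 1.06, Krt8 0.036, Krt5 -0.35, Mki67 -0.20, Tgfbr1 0.16, Cxcl10 0.0027, Foxa1 -0.093 and Gata3 -0.087. In batch 3 alone, they were RT1-Da -0.17, Irf8 -0.12, Ccl22 -1.51, Itgam -0.74, Blk -0.59, Mmp9 -0.0039, Alas2 -2.98, Acta1 1.69, Ifngr1 -0.87, Irf1 -0.71, Tap1 -0.26, Cd74 -0.39, Krt14 0.34, Esr1 1.26, Tgfb1 0.46, RT1-Db1 -0.69, RT1-Ba -0.014, Gbp2 -0.10, Lalba -0.58 and Erbb2 0.040. With the share of counts from batch 3 as a covariate, a setting chosen after seeing the data, they were Ifngr1 -0.0069, Krt5 -0.061, RT1-DMa -0.37 and RT1-DMb -0.74. Over single columns with the rat as a random effect, they were Alas2 -1.53, Irf1 -0.16, Krt5 -0.22 and Esr1 0.44. Over single columns with batch as a covariate too, they were Alas2 -0.48, Irf1 -0.22, Krt5 -0.28 and Esr1 0.46. With Ptprc under 50 CPM, they were Irf1 -0.065, Mki67 -0.069 and Ptprc -0.062. With Epcam over 5 times Col1a1, they were Alas2 -0.94, Irf1 -0.071, Krt18 0.079 and Mki67 -0.072. With growing tumours only, they were Atp2a1 0.87, Irf8 -0.29, Itgam -0.0072, Adipoq 0.22, Acta1 2.70, Irf1 -0.44, Tap1 -0.074, Krt5 -0.16 and Mki67 -0.20. From the mean CPM over a rat's columns, they were Rsad2 0.053 and Alas2 -0.14. Over the fits that left out 1 rat each, the log2 fold changes ran for Rsad2 from -2.26 to 0.71, Krt8 from -0.44 to 0.18, Krt18 from -0.25 to 0.19, Mki67 from -0.12 to 0.69, Tgfbr1 from -0.49 to 0.10, Mmp9 from -0.63 to 1.44, Irf1 from -0.28 to 0.38, Ptprc from -0.062 to 3.01, Ifngr1 from -0.29 to 0.21, Krt5 from -0.25 to 0.42, Krt14 from -0.79 to 0.14, Acta1 from -3.77 to 0.86 and for Esr1 from -1.29 to 0.80. Of 38 list medians, 10 moved by more than the spread between rats under some setting, and the cause was not tested. In batch 3 alone these were MHC class I (-0.24), MHC class II (-0.17), receptor tyrosine kinases (-0.83), p53 and apoptosis (-0.54), macrophage (-0.59), cytotoxic (-3.10), red cell (-2.40), skeletal muscle (1.38) and common leukocyte genes (0.09). The B cell median was 1.16 in batch 2 alone, the red cell median -5.32 with batch as a covariate, the skeletal muscle median 1.83 with growing tumours only and 0.94 without P7, and the cytotoxic median -1.60 without P24. The MHC class II median ran from 1.40 (without PDL1 rat P28) to 2.57 (without Vehicle rat P7) when each rat was left out and was 0.37 with growing tumours only, 1.04 over single columns, 1.06 with batch as a covariate too and 1.08 from the mean CPM over a rat's columns.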
